A study of Homo sapiens with 23 samples.

Results

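The EGF receptor family, its ligands and the receptor MET were followed across HCT116 cells that had lost one or more argonaute (AGO) proteins. The 9 genes were taken as listed symbols and matched to the Ensembl identifiers of 57875 genes in the count files. They are 4 receptors (*EGFR*, *ERBB2*, *ERBB3* and *MET*), 4 ligands (*AREG*, *EREG*, *TGFA* and *HBEGF*) and 1 inhibitor of the receptor (*ERRFI1*). All 9 passed the filter on low counts and were among the 22842 genes tested. The rule that lists them uses symbols and no measured value, although it was written with earlier results of these data known.

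HCT116 is a human colorectal carcinoma cell line. RNA was sequenced from 3 biological replicates of each of 5 lines, all grown in the same serum-containing medium with no treatment named in the labels, and used at passages 12 to 18. The lines were wild type, AGO1-/-, AGO2-/-, AGO1-/- with AGO2-/-, and AGO1-/- with AGO2-/- and AGO3-/-, called wild-type, *AGO1* knockout, *AGO2* knockout, double knockout (*AGO1/2*) and triple knockout (*AGO1/2/3*) cells below. The knockout lines were made by CRISPR editing. Each genotype is a single line, so that the effect of the genotype and that of the line cannot be told apart.

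AGO proteins carry miRNAs, short RNAs that pair through their seed (bases 2 to 8) with matching sites in the 3′-untranslated region (3′-UTR) of an mRNA. In the canonical model this pairing represses the mRNA, and the study asked how steady state mRNA levels change when AGO proteins are lost. EGFR, ERBB2 and ERBB3 are receptor tyrosine kinases that work as dimers and signal through adaptors to RAS, RAF, MEK and ERK, a pathway that drives growth of the intestinal epithelium and of colorectal tumors. ERBB2 has no known ligand of its own, ERBB3 has a weak kinase and binds neuregulins, and MET is the receptor for hepatocyte growth factor. The 4 ligands are made as membrane-bound precursors that are released by proteases, and they bind EGFR. ERRFI1, also called MIG6, binds the kinase domain of EGFR and inhibits it, and growth factor signalling induces its mRNA.

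The miRNAs below are shown because the study assayed the first 6 by qPCR and because miR-7-5p and miR-34a-5p are widely studied for *EGFR* and *MET*. Sequences are RefSeq mature miRNAs (GRCh38.p14), 5′ to 3′, and capitals mark the seed. let-7a-5p and let-7f-5p share a seed, so that the 8 miRNAs have 7 different seeds.
let-7a-5p: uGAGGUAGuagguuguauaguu
let-7f-5p: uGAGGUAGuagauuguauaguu
miR-21-5p: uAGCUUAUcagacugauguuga
miR-27a-3p: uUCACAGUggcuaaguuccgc
miR-29a-3p: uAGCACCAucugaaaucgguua
miR-125b-5p: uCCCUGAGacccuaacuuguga
miR-7-5p: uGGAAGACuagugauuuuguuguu
miR-34a-5p: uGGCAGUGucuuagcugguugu

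The 3′-UTR of the MANE Select transcript of each gene (GENCODE v44, GRCh38) was searched on the mRNA strand for the 7 bases that pair with each seed. *EGFR* had the longest 3′-UTR of the 9, 6011 bases, and held 7 matches, 4 to miR-27a-3p (ACTGTGA) and 3 to miR-7-5p (GTCTTCC). Among 936 3′-UTRs within 20% of that length, 43.9% held at least 1 ACTGTGA and 32.9% at least 1 GTCTTCC. The *EGFR* sites are shown because *EGFR* was the only one of the 9 mRNAs that was higher in triple knockout cells. Capitals mark the match, and all lie in exonic 3′-UTR on the plus strand.
EGFR miR-27a-3p site at chr7:55205802-55205826: ttcctttgtcttcaaACTGTGAagc
EGFR miR-27a-3p site at chr7:55206032-55206056: gttcatccaggcccaACTGTGAgca
EGFR miR-27a-3p site at chr7:55207503-55207527: acccatcagccaggcACTGTGAgag
EGFR miR-27a-3p site at chr7:55208235-55208259: ttcacggatctggcgACTGTGAtgg
EGFR miR-7-5p site at chr7:55206059-55206083: gagcacaagccacaaGTCTTCCaga
EGFR miR-7-5p site at chr7:55206342-55206366: tagactgacttgtttGTCTTCCatt
EGFR miR-7-5p site at chr7:55208337-55208361: actccatccctgaagGTCTTCCtga

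Matches also lay in genes whose mRNA was lower in triple knockout cells. *TGFA* held 3 matches to miR-7-5p and 1 to miR-34a-5p (CACTGCC) in 3575 bases. *MET* held 2 matches to miR-34a-5p and 1 to miR-27a-3p in 2253 bases, and *AREG* held 1 match to miR-34a-5p in 265 bases. Of 3′-UTRs of similar length, 22.3% held GTCTTCC and 25.5% CACTGCC for *TGFA*, 21.2% held CACTGCC and 21.8% ACTGTGA for *MET*, and 3.78% held CACTGCC for *AREG*. The first match to each miRNA in *TGFA* and the first match from the stop codon in *MET* and in *AREG* are shown for comparison with *EGFR*.
TGFA miR-34a-5p site at chr2:70450780-70450804, minus strand: gcttcttcaggacagCACTGCCaga
TGFA miR-7-5p site at chr2:70450078-70450102, minus strand: taaggcttgggaaaaGTCTTCCagg
MET miR-34a-5p site at chr7:116796160-116796184, plus strand: gtccaatggttttttCACTGCCtga
AREG miR-34a-5p site at chr4:74454760-74454784, plus strand: atatcacattggagtCACTGCCaag

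*ERBB2* and *ERBB3* each held 1 match to miR-125b-5p (CTCAGGG), *EREG* held 2 to miR-29a-3p (TGGTGCT), and *HBEGF* held 1 each to let-7a-5p and let-7f-5p (CTACCTC, the same site), to miR-27a-3p and to miR-29a-3p. None of the 7 sets of letters, which include ATAAGCT for miR-21-5p, was found in the 1483 bases of *ERRFI1*. A match is a description of the sequence. Levels of the miRNAs and AGO2 binding were not analysed here.

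Samples held from 27709971 to 45271146 counts in genes. The files of the 3 samples from *AGO2* knockout cells hold the word quasi in their headers, and the other files do not. Whether the word marks another quantification mode is not known. A difference in mode could not be told apart from genotype. Counts of the 9 genes in a sample ran from 154 (*HBEGF*) to 52038 (*ERRFI1*). *AGO1* RNA, at 131 ± 20.4 counts per 1000000 (CPM) in wild-type cells, was 35.3 ± 3.74, 36.6 ± 1.17 and 32.4 ± 3.47 CPM in the 3 lines edited at *AGO1* (SD, n = 3). *AGO3* RNA was 112 ± 16.0 CPM in wild-type and 51.8 ± 5.68 CPM in triple knockout cells. *AGO2* RNA was 407 ± 45.6 CPM in wild-type, 286 ± 26.3 in *AGO2*, 339 ± 22.8 in double knockout and 538 ± 19.9 CPM in triple knockout cells. Its RNA was thus not reduced in every line edited at *AGO2*, and it was higher in triple knockout cells (log2 fold change 0.40). An edit that alters the protein need not lower the RNA. By Western blot, the paper found the targeted proteins absent from the knockout lines. Of 8 epithelial markers, *VIL1* fell below the filter, and the summed level of the 8 was 1816 to 2045 CPM in wild-type, 1727 to 2214 CPM in triple knockout and 1369 to 2711 CPM in all samples. *CDH1*, the epithelial cadherin, and *EPCAM*, an epithelial adhesion molecule, were lower in triple knockout cells by log2 fold changes of -3.51 and -1.74, while *KRT8*, a keratin, was higher by 0.41. The 12 markers of leukocytes, endothelium, fibroblasts, muscle, liver and glia summed to 28.4 to 35.5 CPM in wild-type, 34.1 to 37.5 CPM in triple knockout and 15.1 to 37.5 CPM in all samples. The highest of them was *COL1A1*, at 9.58 to 27.5 CPM, and *CD3E*, *CD14*, *COL3A1*, *PDGFRB* and *ALB* were at 0 in at least 1 sample. Of the 8 that passed the filter, *COL3A1* and *DES* were higher in triple knockout cells, at under 7 CPM in each sample. The part of these markers in the results was not tested.

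Levels are given as CPM scaled by the TMM method, which corrects for depth and for a few genes taking many of the counts. Each line was compared with wild-type cells in a single edgeR model of all 15 samples, and a gene was called if its quasi-likelihood test gave an adjusted p at or under 0.05. In triple knockout cells 1 of the 9 mRNAs was higher (*EGFR*) and 6 were lower (*ERBB3*, *MET*, *AREG*, *TGFA*, *HBEGF* and *ERRFI1*). Across all genes tested in that comparison, 20.3% were called higher and 19.8% lower. The median log2 fold change of the 9 was -0.76, against -0.01 over all genes tested. In bulk RNA, fewer cells that express a gene and less RNA per cell cannot be told apart.

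The single and double knockouts changed fewer of the 9. In *AGO1* knockout cells 0 were higher and 2 lower (*ERBB3* and *EREG*), where 3.17% of all genes were called higher and 5.5% lower. In *AGO2* knockout cells 0 were higher and 4 lower (*AREG*, *EREG*, *HBEGF* and *ERRFI1*), where 8.55% were called higher and 10.8% lower. In double knockout cells 0 were higher and 2 lower (*HBEGF* and *ERRFI1*), where 8.37% were called higher and 8.35% lower. The 4 comparisons share the wild-type samples, so that they are not independent of each other. The knockout replicates lay wholly outside the range of the wild-type replicates for 3, 5, 0 and 6 of the 9 genes in the *AGO1*, *AGO2*, double and triple knockout cells, where 23.1%, 37.1%, 29.7% and 50.0% of all genes tested did so.

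**Figure D1:**
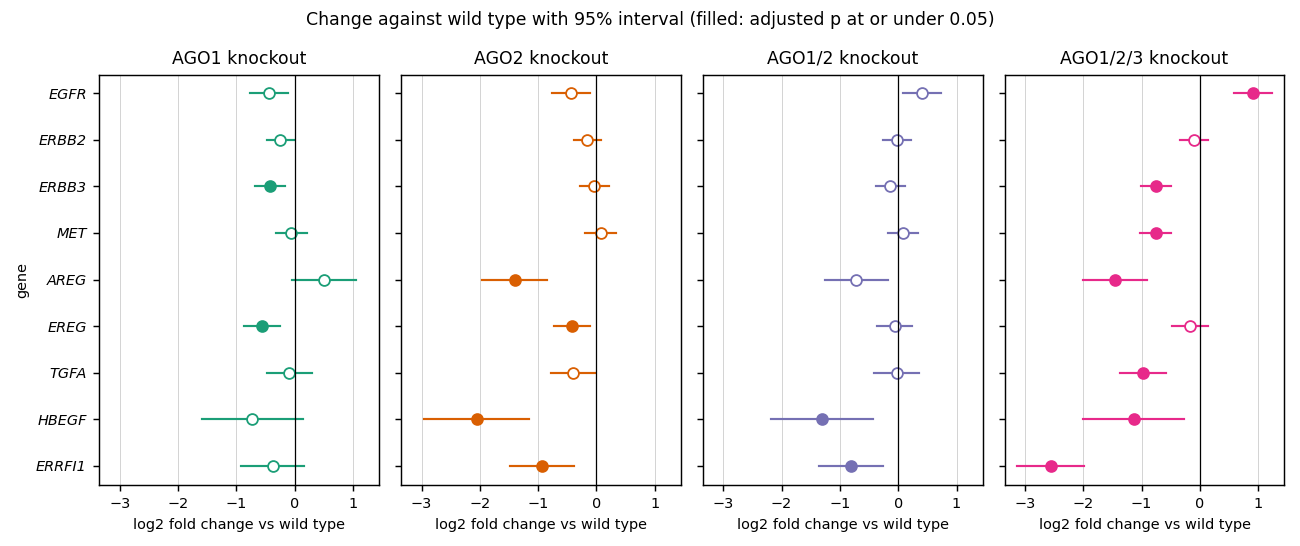
Log2 fold change against wild-type cells (horizontal axis) of the 9 genes (vertical axis) in the 4 knockout lines, with the 95% interval from the edgeR model (bars); filled points were called at an adjusted p at or under 0.05. *EGFR* was the only gene called higher, at 0.90 in triple knockout cells, and *ERRFI1* had the lowest value there, -2.56.

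*EGFR* (ENSG00000146648, chromosome 7, 55019017 to 55211628) was present at 174, 233 and 186 CPM in the 3 wild-type replicates. It was present at 115, 154 and 167 CPM in *AGO1* and at 139, 159.6 and 139 CPM in *AGO2* knockout cells. In double knockout cells the values were 213, 279.8 and 298 CPM, and in triple knockout cells they were 369, 374 and 368 CPM. The triple knockout replicates thus lay above every other sample, and both single knockouts lay below every wild-type replicate. The rise in triple knockout cells was 1.87-fold (log2 fold change 0.90, standard error 0.15, adjusted p = 0.000225). The changes in *AGO1* (-0.45, adjusted p = 0.0871), *AGO2* (-0.44, adjusted p = 0.0547) and double knockout cells (0.41, adjusted p = 0.078) were not called. The *AGO2* change passed the threshold without *AGO1* replicate 1, double knockout replicate 1, or wild-type replicate 1 or 3 (values of -0.44 to -0.54), and the double knockout change passed it without *AGO1* replicate 1, double knockout replicate 1 or wild-type replicate 2 (0.42 to 0.53). The *AGO1* and *AGO2* changes of *EGFR* also passed it with scaling by total counts only (-0.54 and -0.56). The *AGO2* change did so too with the DESeq2 test and with a minimum of 10 counts in all samples. With the replicate number as a block, the *AGO1*, *AGO2* and double knockout changes all passed it. An antisense RNA gene, *EGFR-AS1*, overlaps *EGFR* and was present at 0.482 to 1.09 CPM. The library kit keeps strand, but whether the counting used it is not stated.

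*ERBB2* (ENSG00000141736, chromosome 17, 39687914 to 39730426) was the only receptor with no change called in any knockout line. It was present at 61.1, 46.5 and 66.6 CPM in wild-type cells and between 47.9 and 58.2 CPM in all 12 knockout samples. No change was called, with log2 fold changes of -0.25, -0.16, -0.02 and -0.10 in *AGO1*, *AGO2*, double and triple knockout cells. The 95% interval in triple knockout cells ran from -0.33 to 0.13. Without wild-type replicate 2, the lowest, *ERBB2* was called lower in *AGO1* (-0.38), *AGO2* (-0.32) and triple knockout cells (-0.26).

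*ERBB3* (ENSG00000065361, chromosome 12, 56076799 to 56103505) was present at 47.7, 49.6 and 46.5 CPM in wild-type cells and at 31.5, 27.9 and 26.2 CPM in triple knockout cells. The groups did not overlap, and the level was 1.68-fold lower (log2 fold change -0.75, standard error 0.12, adjusted p = 0.000137). *ERBB3* was present at 33.4, 33.5 and 40.4 CPM in *AGO1* knockout cells, also below every wild-type replicate (log2 fold change -0.42, standard error 0.12, adjusted p = 0.0386). That call was lost in 11 of 23 alternatives, 8 of which left out a sample (*AGO1* replicate 1 or 2, *AGO2* replicate 3, double knockout replicate 3, triple knockout replicate 2, or any wild-type replicate), with log2 fold changes of -0.36 to -0.44. In *AGO2* (53.2, 42.0 and 44.7 CPM) and double knockout cells (38.6, 48.1 and 44.4 CPM) the values overlapped those of wild-type cells and were not called.

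*MET* (ENSG00000105976, chromosome 7, 116672196 to 116798377) had the highest CPM of the 4 receptors in every line but one, the triple knockout. It was present at 547, 522 and 589 CPM in wild-type cells and at 341, 313 and 327 CPM in triple knockout cells, a level 1.69-fold lower (log2 fold change -0.76, standard error 0.12, adjusted p = 0.000155). In *AGO1* (485, 504 and 604 CPM), *AGO2* (568, 616 and 559.8 CPM) and double knockout cells (479, 596 and 682 CPM) the replicates overlapped those of wild-type cells. The log2 fold changes there were -0.06, 0.07 and 0.08, and none was called. *ERBB3* and *MET* were thus both lower in triple knockout cells while *EGFR* was higher in the same samples.

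**Figure D2:**
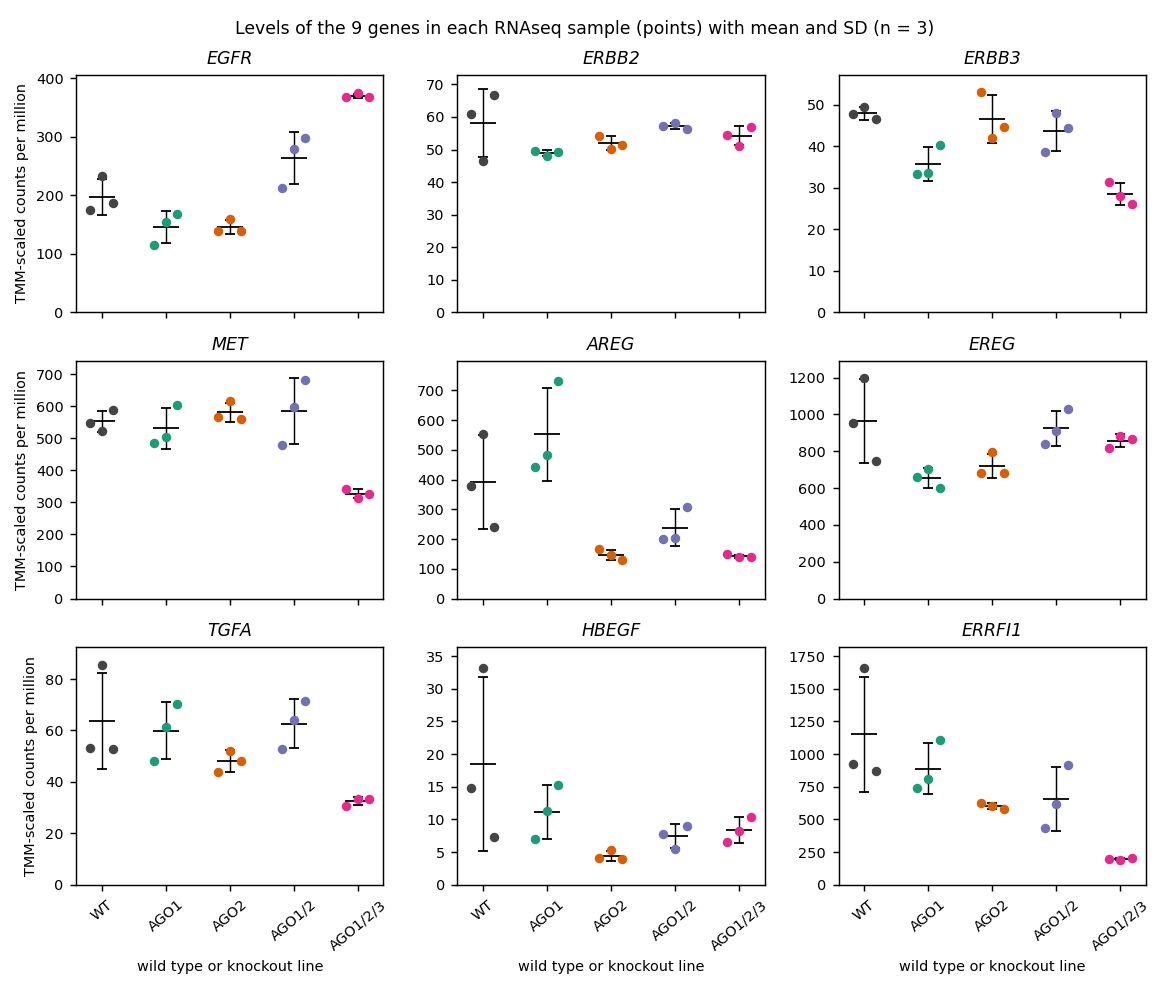
TMM-scaled CPM (vertical axes, starting at 0) of the 9 genes in each RNAseq sample, by line; points are samples, and the bar and whiskers give the mean and SD of 3 replicates. *EGFR* rose to between 368 and 374 CPM in triple knockout cells, *ERRFI1* lay between 187 and 204 CPM there, and wild-type replicate 2 (middle grey point) was the highest wild-type value in 7 of the 9 genes.

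Amphiregulin, *AREG* (ENSG00000109321, chromosome 4, 74445136 to 74455005), varied widely among wild-type replicates, at 378, 554 and 239 CPM. In *AGO2* knockout cells it was present at 165, 146 and 131 CPM, and in triple knockout cells at 149, 139 and 140.1 CPM, all below the lowest wild-type value. The level was 2.65-fold lower in *AGO2* (log2 fold change -1.41, standard error 0.26, adjusted p = 0.00336) and 2.74-fold lower in triple knockout cells (-1.45, standard error 0.26, adjusted p = 0.000368). Both calls were kept in every alternative. The double knockout replicates, at 200.3, 204 and 309 CPM, overlapped wild type and were not called (-0.72, adjusted p = 0.0704), although they were without *AGO1* replicate 3, double knockout replicate 3 or wild-type replicate 3 (-0.72 to -0.99). The double knockout change of *AREG* was also called with scaling by total counts only, with the DESeq2 test and with no filter on low counts. Without wild-type replicate 2 it was -0.395 (not called). The *AGO1* replicates stood at 442, 484 and 732 CPM, the highest mean of the 5 lines, and were not called either (0.50, adjusted p = 0.267), although without wild-type replicate 2 they were (0.84). Without wild-type replicate 3 or *AGO1* replicate 3 that change was 0.24 or 0.27.

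Epiregulin, *EREG* (ENSG00000124882, chromosome 4, 74365145 to 74388749), lies 56386 bases from *AREG* and did not show the same pattern. It was the ligand with the highest CPM, at 953, 1199.7 and 744 CPM in wild-type cells, and it stood at 817, 885 and 867 CPM in triple knockout cells, within the wild-type range (log2 fold change -0.17, 95% interval -0.48 to 0.13, adjusted p = 0.366). Without wild-type replicate 3 that change was called (-0.36), and without wild-type replicate 2 it was -0.02. In double knockout cells the values were 837, 909.5 and 1027 CPM and the change was -0.06. In *AGO1* knockout cells *EREG* was present at 662, 703 and 599 CPM, below every wild-type replicate (-0.56, standard error 0.14, adjusted p = 0.0241), and in *AGO2* knockout cells at 681, 795 and 681 CPM, which overlapped wild type (-0.43, standard error 0.14, adjusted p = 0.0499). The *AGO1* call was lost without any *AGO1* replicate or without wild-type replicate 1 or 2, with values of -0.37 to -0.60. It was lost too with only the 6 samples compared. The *AGO2* call was lost in 16 of 22 alternatives, among them those without wild-type replicate 1 or 2, without any single sample of the *AGO1*, *AGO2* or triple knockout cells and without double knockout replicate 2 or 3, with values of -0.27 to -0.52.

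Within a sample, the ratio of *AREG* to *EREG* counts does not depend on how samples are scaled. The ratio was chosen after the values of both genes were seen, and it is given with no test. It was 0.397, 0.462 and 0.322 in the wild-type samples and 0.668, 0.688 and 1.22 in *AGO1* knockout cells. It was 0.243, 0.184 and 0.192 in *AGO2*, 0.239, 0.224 and 0.301 in double knockout, and 0.182, 0.157 and 0.162 in triple knockout cells. All 3 *AGO1* samples thus lay above the wild-type range, and all 9 samples with *AGO2* edited lay below it.

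Transforming growth factor alpha, *TGFA* (ENSG00000163235, chromosome 2, 70447284 to 70554193), was present at 53.1, 85.3 and 52.9 CPM in wild-type cells and at 30.6, 33.2 and 33.4 CPM in triple knockout cells. These groups did not overlap, and the level was 1.97-fold lower (log2 fold change -0.98, standard error 0.18, adjusted p = 0.000508). The *AGO2* replicates, at 43.9, 52.1 and 48.3 CPM, each lay below the lowest wild-type replicate, but the change was not called (-0.41, adjusted p = 0.118). It was called without wild-type replicate 3 (-0.55) or with scaling by total counts only, and it was -0.17 without wild-type replicate 2. The *AGO1* (48.1, 61.3 and 70.1 CPM) and double knockout samples (52.6, 63.9 and 71.4 CPM) overlapped wild type, with changes of -0.09 and -0.03.

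Heparin-binding EGF-like growth factor, *HBEGF* (ENSG00000113070, chromosome 5, 140332843 to 140346603), was the least abundant of the 9 by CPM and had the widest range between replicates in every line but the double knockout, where *ERRFI1* did. The wild-type replicates stood at 14.8, 33.2 and 7.33 CPM, a range of 4.53-fold. In *AGO2* knockout cells the values were 4.10, 5.28 and 3.90 CPM, below every wild-type replicate, and the level was 4.16-fold lower (log2 fold change -2.06, standard error 0.42, adjusted p = 0.00594), or -1.35 and still called without wild-type replicate 2. In double knockout (7.81, 5.48 and 9.06 CPM) and triple knockout cells (6.58, 8.16 and 10.4 CPM) the values overlapped the lowest wild-type replicate, and both were called lower (-1.31, adjusted p = 0.0415, and -1.14, adjusted p = 0.037). Without wild-type replicate 2 these *HBEGF* changes were -0.59 (adjusted p = 0.271) and -0.43 (adjusted p = 0.335). Neither was called then. The double knockout call was also lost without *AGO1* replicate 2, *AGO2* replicate 3, any double knockout replicate or triple knockout replicate 2 (values of -1.14 to -1.47), and the triple knockout call without triple knockout replicate 1 or 2 (values of -1.0 and -1.13). Both calls were lost too with the replicate number as a block, with only the 6 samples compared and without the *AGO2* knockout samples. With the DESeq2 test the triple knockout call was lost as well. In *AGO1* knockout cells (6.97, 11.3 and 15.2 CPM) the change of -0.73 was not called.

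*ERRFI1* (ENSG00000116285, chromosome 1, 8004404 to 8026309), the feedback inhibitor of EGFR, had the largest change of the 9. It was present at 925, 1659 and 869 CPM in wild-type cells and at 194, 187 and 204 CPM in triple knockout cells. The groups were far apart, and the level was 5.90-fold lower (log2 fold change -2.56, standard error 0.27, adjusted p = 2.42e-06). Values of *ERRFI1* in *AGO2* knockout cells were 626, 599.9 and 577 CPM, also below every wild-type replicate (-0.94, standard error 0.26, adjusted p = 0.0222), and in double knockout cells they were 436, 617 and 915 CPM, which overlapped wild type (-0.81, standard error 0.25, adjusted p = 0.0402). The *AGO1* values of 741, 812 and 1109 CPM were not called (-0.38, adjusted p = 0.421), and the change was -0.02 without wild-type replicate 2. Without wild-type replicate 2 *ERRFI1* changed by -2.23 in triple knockout cells, still called, by -0.60 in *AGO2* and by -0.47 in double knockout cells, neither of them called. The *AGO2* call was also lost without *AGO2* replicate 2 or 3 (-0.95 and -0.93). The double knockout call was also lost without *AGO1* replicate 2 (-0.81) or double knockout replicate 1 or 2 (-0.61 and -0.79). It was lost too with only the 6 samples compared and without the *AGO2* knockout samples.

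*EGFR* and *ERRFI1*, the receptor and its inhibitor, moved in opposite directions in triple knockout cells. Their count ratio within a sample, also chosen after the values were seen and given with no test, was 0.189, 0.140 and 0.214 in wild-type cells. It was 0.155, 0.189 and 0.151 in *AGO1*, 0.222, 0.266 and 0.241 in *AGO2* and 0.489, 0.453 and 0.326 in double knockout cells. In triple knockout cells it was 1.90, 2.0 and 1.80, so that *EGFR* counts outnumbered *ERRFI1* counts in those 3 samples and in no other. Counts also grow with transcript length, which is 9905 bases for *EGFR* and 3097 for *ERRFI1*. Per kilobase, mean *ERRFI1* stayed above *EGFR* in triple knockout cells (63.0 against 37.4 CPM).

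**Figure D3:**
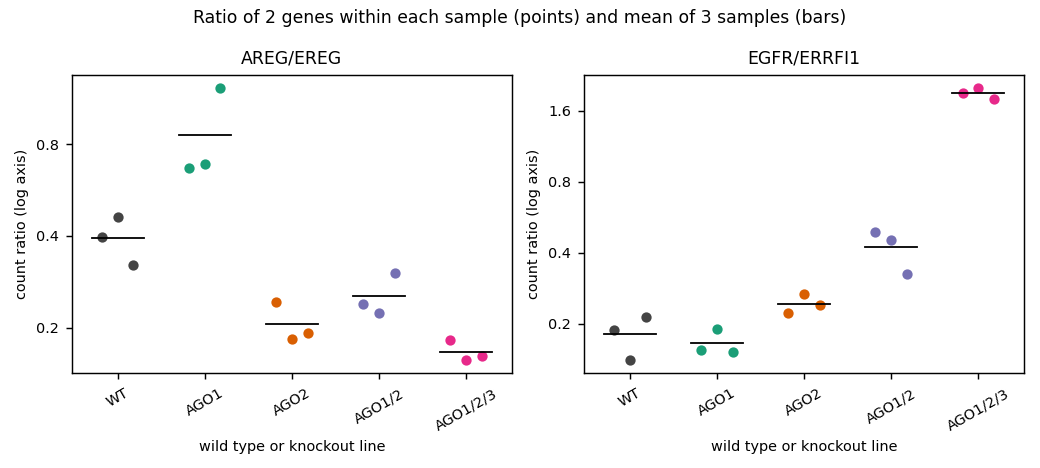
Ratio of *AREG* to *EREG* counts and of *EGFR* to *ERRFI1* counts within each sample (vertical axes, log scale), by line; points are samples and bars are means of 3. The first ratio was 0.668 to 1.22 in *AGO1* and 0.157 to 0.182 in triple knockout cells, and the second was 0.140 to 0.214 in wild-type and 1.80 to 2.0 in triple knockout cells.

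To compare levels between genes, CPM were divided by the length of the MANE Select transcript in kilobases. On that scale *ERRFI1* led in wild-type cells, at a mean level of 372 CPM per kilobase, followed by *AREG* (317), *EREG* (209), *MET* (81.1), *EGFR* (20.0), *TGFA* (15.5), *ERBB2* (12.7), *ERBB3* (8.54) and *HBEGF* (7.82). In triple knockout cells the order was *EREG* (186), *AREG* (116), *ERRFI1* (63.0), *MET* (47.9), *EGFR* (37.4), *ERBB2* (11.9), *TGFA* (7.87), *ERBB3* (5.08) and *HBEGF* (3.56). *ERRFI1* thus moved from rank 1 to rank 3 by mean level per length, and *EGFR* came closer to *MET*.

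The order of the 5 lines by mean level differed between genes, and most steps between neighbours were not called. For *EGFR* the order from the top was triple knockout, double knockout, wild type, *AGO2* and *AGO1*, and only the first step, 0.49 on the log2 scale, was called (adjusted p = 0.0311). That call was lost in 6 of 23 alternatives, without *AGO1* replicate 2, double knockout replicate 1 or 2, or any triple knockout replicate, with *EGFR* values of 0.35 to 0.53. For *ERBB3*, *MET*, *TGFA* and *ERRFI1* the only step called was the last, into triple knockout cells, from *AGO1* knockout cells for *ERBB3* (0.33, adjusted p = 0.0404) and *MET* (0.70, adjusted p = 0.000287) and from *AGO2* knockout cells for *TGFA* (0.57, adjusted p = 0.0197) and *ERRFI1* (1.62, adjusted p = 0.000135). In all, 2 of the 9 (*EGFR* and *EREG*) were higher and 5 lower (*ERBB3*, *MET*, *AREG*, *TGFA* and *ERRFI1*) in triple than in *AGO1* knockout cells (21.8% and 18.9% of all genes tested), and 1 was higher (*EGFR*) and 4 lower (*ERBB3*, *MET*, *TGFA* and *ERRFI1*) in triple than in *AGO2* knockout cells (21.3% and 18.9%). For *ERBB2*, *AREG*, *EREG* and *HBEGF* no step between neighbours was called.

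Triple and double knockout cells, which differ in genotype by the loss of *AGO3*, were also compared directly. Each is a single line, so that the loss of *AGO3* and the line cannot be told apart. *AGO2* RNA was also higher in the triple knockout cells (log2 fold change 0.67, adjusted p = 0.000235). Of the 9 genes 1 was higher (*EGFR*) and 4 were lower (*ERBB3*, *MET*, *TGFA* and *ERRFI1*), where 11.9% of all genes tested were called higher and 10.0% lower. *ERRFI1* was 3.36-fold lower (log2 fold change -1.75, standard error 0.26, adjusted p = 0.000197), *TGFA* 1.93-fold (-0.95, adjusted p = 0.00147), *MET* 1.79-fold (-0.84, adjusted p = 0.000166) and *ERBB3* 1.53-fold (-0.61, adjusted p = 0.00169). *AREG* was not called, with a change of -0.74 (adjusted p = 0.0518), and its triple knockout replicates lay below every double knockout replicate. The replicates of both lines were separate for 6 of the 9 genes, where 41.6% of all genes tested were. *AREG* passed the threshold in 10 of 23 alternatives, among them those without *AGO1* replicate 1 or 3, double knockout replicate 1, or wild-type replicate 2 or 3, with values of -0.74 to -0.85. The changes of *ERBB2* (-0.08), *EREG* (-0.11) and *HBEGF* (0.17) were not called.

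Whether losing both *AGO1* and *AGO2* differs from the sum of losing each was tested as an interaction, the change of double knockout cells less the changes of both single knockouts. *EGFR* (1.30, standard error 0.22, adjusted p = 0.000846) and *EREG* (0.92, standard error 0.20, adjusted p = 0.00574) were called above 0, where 11.5% of all genes tested were called above 0 and 8.26% below. Both genes had lower mean levels in each single knockout, while in double knockout cells *EGFR* stood 0.41 above and *EREG* 0.06 below wild type on the log2 scale, neither of them called. *HBEGF* had a larger value with a larger error (1.48, standard error 0.59, adjusted p = 0.0896) and was not called. It was called without wild-type replicate 3 (1.87) and with no filter on low counts, and without wild-type replicate 2 its value was 0.751. The other 6 genes had values of 0.07 (*MET*) to 0.50 (*ERRFI1*), and none of them was called. *ERBB2* (0.39) was called without wild-type replicate 2 (0.53) and with scaling by total counts only.

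Other genes of the pathway were described from fixed lists in triple knockout cells, where 20.3% of all genes were called higher and 19.8% lower. Of 11 other receptors and ligands of the ErbB and MET families, 9 were tested, 4 were higher and 2 lower. The precursor of EGF itself rose from 0.434 ± 0.14 to 6.10 ± 0.69 CPM (SD, n = 3; log2 fold change 3.80, adjusted p = 1.36e-07), and neuregulins *NRG1* and *NRG2*, ligands of ERBB3 and ERBB4, rose by 2.01 and 1.27, all from levels near 1 CPM or less. *MST1* and its receptor *MST1R*, relatives of HGF and MET, were named after their values were seen and were lower by log2 fold changes of -1.13 and -0.97. *HGF*, the ligand of MET, had no counts in wild-type or triple knockout cells and was not tested, and *NRG3* was not tested either. The median of the 9 was 0.23, against -0.01 over all genes tested.

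Of 5 genes for release of EGFR ligands, 1 was higher and 2 were lower. The protease *ADAM10* was higher by 0.55, and the protease *ADAM17* (-0.49) and *RHBDF2* (-1.02), which takes part in the maturation of ADAM17, were lower. In this list 1 gene rather than 2 was called lower in 6 of 23 alternatives. Among these were the fits without wild-type replicate 2 or without any triple knockout replicate. Of 5 genes for activation of HGF, 3 were tested and 2 were lower, the protease *ST14* (74.6 ± 15.8 against 22.2 ± 1.59 CPM, log2 fold change -1.75, adjusted p = 2e-07) and its inhibitor *SPINT2* (-0.35). *HPN* and *HGFAC* were not tested. The medians of the ligand release and HGF activation lists were -0.23 and -0.35.

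In the adaptor and cascade lists more genes were called higher than lower, where 20.3% of all genes tested were called higher and 19.8% lower. Of 12 receptor adaptors and effectors 7 were higher and 0 lower, led by the docking proteins *GAB2* (1.5) and *FRS2* (1.21) and by the phospholipase *PLCG1* (0.84), and the median of the 12 was 0.50. Without wild-type replicate 3, 1 of the 12 was called lower. Of 13 genes of the RAS, RAF, MEK and ERK cascade and its regulators 4 were higher and 0 lower, led by *NRAS* (0.82), with a median of 0.11. When only total counts were used for scaling, 2 of the 13 were called lower.

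Of 16 genes that end or limit receptor signalling 4 were higher and 3 lower, with a median of 0.08. The ubiquitin ligase *CBLC*, expressed mainly in epithelia, had the largest change, from 21.3 ± 4.24 to 3.13 ± 0.73 CPM (SD, n = 3; log2 fold change -2.76, adjusted p = 2.52e-07). The phosphatase *PTPN1* (1.24) and the transmembrane inhibitor *LRIG1* (0.78) were higher. Without triple knockout replicate 1 or 2 or wild-type replicate 1, 1 gene of the 16 rather than 3 was called lower, and with scaling by total counts only 5 were.

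Of 15 transcripts known to respond to ERK 4 were higher and 5 lower, with a median of -0.05, so that the list had no common direction. The immediate early transcription factors *FOS* (-2.88) and *EGR1* (-1.97) were lower, and *CCND1*, which encodes cyclin D1, rose from 523 ± 32.7 to 2550.0 ± 229.9 CPM (SD, n = 3; log2 fold change 2.29, adjusted p = 2.18e-08). *FOS* varied between the triple knockout replicates, at 21.3 ± 24.7 CPM, as did *EGR1*, at 81.2 ± 76.6 CPM. The ERK-responsive transcripts called higher were 2 rather than 4 in 7 of 23 alternatives. Among these were the fits without *AGO1* replicate 2, triple knockout replicate 1 or 2, or wild-type replicate 1. The transcripts called lower were 3 rather than 5 without wild-type replicate 2.

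**Figure D4:**
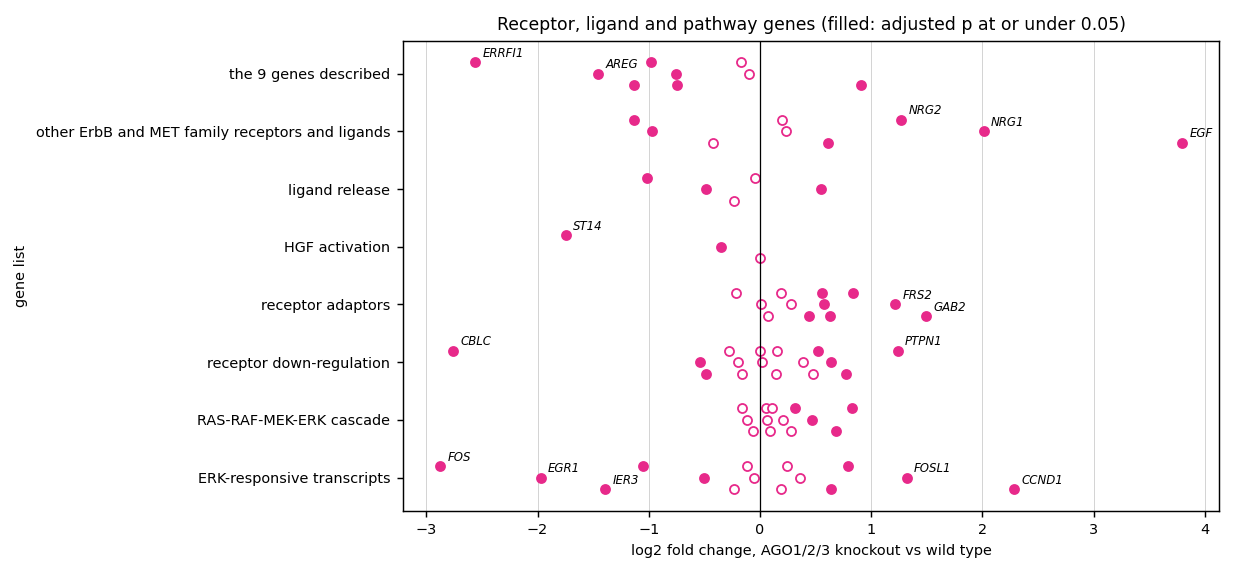
Log2 fold change in triple knockout against wild-type cells (horizontal axis) of the 9 genes and of each tested gene of the fixed lists (vertical axis); filled points were called at an adjusted p at or under 0.05, and vertical offsets within a list only separate the points. All 7 genes called in the adaptor list and all 4 called in the cascade list were higher, while the ERK-responsive transcripts ranged from -2.88 (*FOS*) to 2.29 (*CCND1*).

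Several of the calls depended on wild-type replicate 2. Wild-type replicate 2 had the highest wild-type level of *EGFR*, *ERBB3*, *AREG*, *EREG*, *TGFA*, *HBEGF* and *ERRFI1*, 7 of the 9, and the lowest of *ERBB2* and *MET*. Similarly, replicate 3 was the highest of its line for 7 of the 9 in both *AGO1* and double knockout cells. The spread was wider in wild-type than in triple knockout cells for 8 of the 9 genes. For *ERRFI1* the highest wild-type replicate was 1.91-fold above the lowest, against 1.09-fold in triple knockout cells, and for *AREG* the folds were 2.32 and 1.07. Without wild-type replicate 2 the calls of *EGFR* (1.01), *ERBB3*, *MET*, *AREG* (-1.14), *TGFA* (-0.74) and *ERRFI1* (-2.23) in triple knockout cells were kept, while *HBEGF* was lost.

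**Figure D5:**
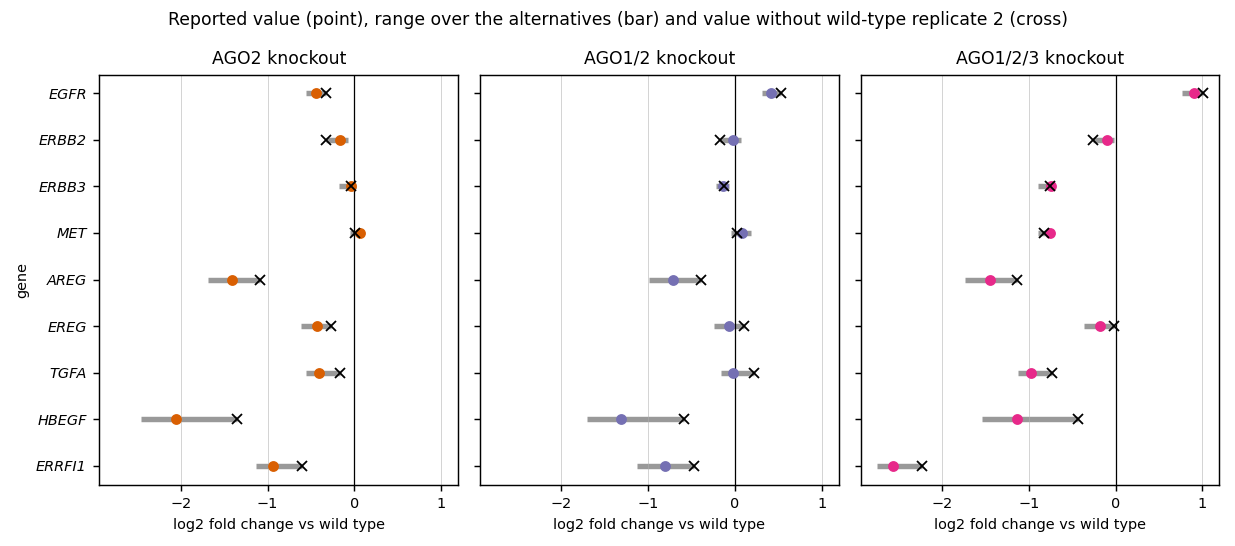
Log2 fold change against wild-type cells (horizontal axis) of the 9 genes (vertical axis) in *AGO2*, double knockout and triple knockout cells; points are the reported values, grey bars the range over the alternative settings and crosses the value without wild-type replicate 2. In triple knockout cells *HBEGF* moved from -1.14 to -0.43 without that sample, while *EGFR* stayed between 0.76 and 1.01 in all settings.

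The 5 megabases on each side of a gene were examined for a shift shared with its neighbours. In triple knockout cells the median log2 fold change of neighbours at 1 CPM or more lay between -0.17 and 0.01 for 8 of the 9 genes. For *EGFR* the 19 neighbours had a median of -0.31, against 0.90 for *EGFR* itself. For *ERRFI1* the 89 neighbours had a median of 0.01, against -2.56.

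For each gene the genes with the most similar profile were found, by Pearson's r of log2 CPM over the 15 samples among 9796 genes at 10 CPM or more on average. The samples fall into 5 lines, and r is given as a description. *EGFR* was most like *SMURF2* (r = 0.984) and *WWTR1* (0.98), *ERBB2* like *GPX4* (0.89) and *TNS2* (0.793), *ERBB3* like *CDH3* (0.964) and *KIF5A* (0.956), and *MET* like *KIAA1671* (0.941) and *F2RL1* (0.934). Among ligands, *AREG* was most like *DRAM1* (0.948) and *VASP* (0.944), *EREG* like *CLIP4* (0.883) and *EEIG1* (0.875), *TGFA* like *RFFL* (0.959) and *SND1* (0.948), and *HBEGF* like *PTPDC1* (0.916) and *GTPBP2* (0.915). *ERRFI1* was most like the non-coding RNA *SNHG8* (0.971) and *GRB7* (0.966), an adaptor that binds ErbB receptors. None of the 9 was among the 2 closest genes of another, although some of them varied together. Between members r ranged from -0.599 (*EGFR* and *ERRFI1*) to 0.913 (*TGFA* and *ERRFI1*). For deviations from the mean of each line it ranged from -0.826 (*ERBB2* and *EREG*) to 0.917 (*EGFR* and *TGFA*). For *EGFR* and *ERRFI1* these deviations had r = 0.828.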

How the data were processed

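RNA from 5 lines was measured by RNAseq in 15 samples, 3 biological replicates a line. Per the paper's methods, total RNA was depleted of ribosomal RNA and sequenced paired-end from stranded libraries. The authors aligned reads to hg38 with STAR, used Salmon for quantification, and deposited its estimated counts for each gene, not normalized for depth. The submitters' processing notes name STAR 2.5.3a and Salmon 0.11.0, while the methods name other versions. The methods give the annotation as Gencode v75, a release that was not checked. Estimated counts were rounded, filtered with filterByExpr, scaled by TMM and tested with the quasi-likelihood test of edgeR 4.0.16 in R 4.3.3, with 1 mean for each line. Benjamini-Hochberg adjustment was made over all 22842 genes tested, with calls at 0.05, the study's threshold, and adjusted p-values in the text are of this kind. Standard errors and 95% intervals of log2 fold changes come from this fit. Where replicates share culture steps, p-values measure the spread between these samples. Medians, ratios and plots used Python 3.11.15 and pandas 2.3.3. Log2 CPM used a prior count of 2. The fit was tested on simulated data.

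Symbols, positions and 3′-UTRs come from GENCODE v44 (GRCh38), which held 57167 of the 57875 identifiers. The 9 genes and the lists were chosen with earlier results of these data known. Genes named from a list were up to 3 called genes with the largest change in *AGO1/2/3* knockout cells, and genes not tested. The 2 genes most like each of the 9 were taken by correlation. The alternatives tried were scaling by total counts or by the size factors of DESeq2 1.42.0, the DESeq2 test, no filter, a minimum of 10 counts in all samples, a fit to just the 6 samples compared, no *AGO2* knockout samples, the replicate number as a block, and each sample left out in turn. The 8 eCLIP samples were not analysed here. Values of some genes of the lists are not reported here.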

Additional observations from a re-analysis of the deposited data

Results flagged for a closer look

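*EGFR* and *EREG* stood out because their change on loss of *AGO2* differed between cells with and without *AGO1*, by a test of the difference itself (quasi-likelihood test of edgeR, adjusted over all genes tested). For *EGFR* the interaction was 1.30 on the log2 scale (adjusted p = 0.000846), and it stayed between 1.15 and 1.43 and was called in all 21 alternatives. *EGFR* lay below all 3 wild-type replicates in 3 of 3 *AGO1* and 3 of 3 *AGO2* samples. For *EREG* the interaction was 0.923 (adjusted p = 0.00574), between 0.75 and 1.09 and called in all 21 alternatives. *EREG* lay below all 3 wild-type replicates in 3 of 3 *AGO1* and 2 of 3 *AGO2* samples. The single-knockout changes behind these values were not called for *EGFR*, and those of *EREG* were lost without wild-type replicate 2. Across all genes tested, 11.5% had an interaction called above 0 and 8.26% below. Both interactions use the *AGO2* knockout samples, whose file headers alone hold the word quasi. No alternative tried can tell a possible difference in quantification mode, or the line, from the genotype.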

How the results depend on the processing

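Of 54 results on single members 22 were called, and 14 of the 22 kept their call in every one of up to 23 alternatives, among them all calls of *EGFR*, *ERBB3*, *MET*, *AREG*, *TGFA* and *ERRFI1* against wild type in triple knockout cells. No called result changed sign, while 12 of the 32 uncalled results did in at least 1 alternative. Of 1215 values compared, 1089 kept direction and side of the threshold, 65 lost a call, 41 gained one and 20 changed sign. Scaling by total counts only moved the median of all genes by -0.10, -0.14, -0.08 and -0.15 on the log2 scale in *AGO1*, *AGO2*, double and triple knockout cells.

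Members called lower in *AGO1* knockout cells were 2, or 3 with total counts only, 1 with no filter on low counts and 0 with only the 6 samples compared. Members called lower in *AGO2* knockout cells were 4, or 3 to 6 over the settings that kept all samples of the lines compared, with 6 for total counts only. Members called lower in double knockout cells were 2, or 3 with total counts only, DESeq2 or no filter, 1 under the replicate block, 0 with only the 6 samples and 0 without the *AGO2* knockout samples, and members called higher there were 0, or 1 under the replicate block. With each sample left out in turn, members called higher ranged from 0 to 1 in *AGO1*, 0 to 1 in double knockout and 0 to 1 in triple against double knockout cells. Members called lower ranged from 0 to 2 in *AGO1*, 2 to 6 in *AGO2* and 0 to 3 in double knockout cells. In triple knockout cells they ranged from 5 to 7, with 1 higher throughout. There, 6 were lower, or 5 with DESeq2, under the replicate block, with only the 6 samples and without the *AGO2* knockout samples. The causes were not tested.

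Values that changed sign were all uncalled. With no filter *ERBB3* changed by 0.000109 in *AGO2* knockout cells, and with total counts only *MET* changed by -0.0472 in *AGO2* and -0.00815 in double knockout cells. With each sample left out, *AGO1* changes ranged from -0.139 to 0.00314 for *MET*, -0.209 to 0.177 for *TGFA* and -1.11 to 0.00856 for *HBEGF*, and the *AGO2* change of *ERBB3* from -0.176 to 0.0151. Double knockout changes ranged from -0.173 to 0.0707 for *ERBB2*, -0.0427 to 0.19 for *MET*, -0.237 to 0.107 for *EREG* and -0.161 to 0.225 for *TGFA*. The triple against double knockout change of *HBEGF* ranged from -0.0488 to 0.319, and interactions from -0.0905 to 0.197 for *MET* and -0.142 to 0.452 for *AREG*.

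Replicate numbers did not pair the samples. The correlation of deviations between same-numbered samples of different lines averaged -0.0114 (-0.394 to 0.486 over 30 pairs, 8 of them over 0.1), against 0.00563 for other pairs. With the replicate number as a block, 48 of the 54 single-member results stayed, 3 lost a call (*ERBB3* in *AGO1* with -0.42, *HBEGF* in double knockout with -1.22 and in triple knockout cells with -1.09), 3 gained one (*EGFR* in *AGO1* with -0.45, in *AGO2* with -0.43 and in double knockout cells with 0.41) and 0 changed sign. Counts for the pathway lists under each alternative were added after seeing the data. Depth limits *HBEGF* most, at 154 to 1041 counts a sample.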
